A study of Canis lupus familiaris with 39 samples.

Results

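The cerebrum, the large paired portion of the forebrain, is described by the 4 arrays whose labels name this organ, out of 39 arrays in the series. Its mean was set against the unweighted mean of the 9 other organ means, so that heart, jejunum, kidney, liver, lung, peripheral lymph node, pancreas, skeletal muscle and spleen each counted the same. The other organs had 35 arrays, 4 for each organ and 3 for pancreas. All organs were from 4 dogs, male and female, juvenile to adult, beagle or of mixed breed, with no treatment stated, and were judged normal by pathology. The labels number the arrays of an organ but do not tie a number to a dog, a sex, a breed or an age, and do not say which part of the cerebrum was sampled or how much white matter it held. The p-values therefore measure the spread between these samples, pooled over the 10 organs. Each probeset, a group of short probes for 1 transcript, has a value on the log2 scale, on which a difference of 1 is a 2-fold change. Array medians lay between 3.95 and 4.11, so values of 3 to 5 are dim. Precision is set by how few arrays there are. For a gene that is dim in the 9 other organs, the pooled spread can be smaller than that among the cerebrum arrays. GAD1, for example, had an SD of 0.57 over the 4 cerebrum arrays and a standard error (SE) of 0.11 for its difference. Such SEs and p-values can understate the uncertainty of the cerebrum mean.

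The cerebrum holds neurons together with astrocytes, oligodendrocytes, microglia and vessels. Neurons signal by releasing glutamate or GABA from synaptic vesicles onto receptors of the next cell, while astrocytes take up the released transmitter and oligodendrocytes wrap axons in myelin. The tissue is fuelled mainly by glucose that crosses the blood-brain barrier, and it is known for low levels of the molecules that present antigen to T cells.

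The label was first checked against 4 neuronal markers. SNAP25, a membrane fusion protein of synaptic vesicle release, gave 12.70, 12.64, 12.84 and 12.998 in the cerebrum arrays, against 3.22, 3.46 and 6.27 as the lowest, the median and the highest of the other 35 arrays. GRIA2, a subunit of the AMPA type of glutamate receptor, gave 11.47, 11.88, 11.08 and 11.80 in cerebrum, against 3.07, 3.23 and 3.99 in the others. NEFL, the light chain of neurofilaments, gave 10.99, 12.12, 11.49 and 12.08 in cerebrum, against 3.25, 3.52 and 4.05. In each marker every cerebrum array stood far above every other array, and so did RTN1, a reticulon of the neuronal endoplasmic reticulum, with a cerebrum mean of 11.33 ± 0.25 (SD, n = 4) and a highest other array of 4.20. Pairs of cerebrum arrays correlated at 0.9521 to 0.9815 over all probesets, and the closest array of any other organ reached 0.8197. In these bulk samples a lower proportion of a cell type and less RNA per cell cannot be told apart.

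Differences were tested with limma, with p-values adjusted over all 42860 probesets and called at a false discovery rate of 0.001. Of 15115 genes with a usable probeset, each represented by its probeset of highest mean, 1862 (12.3%) were higher in cerebrum than the mean of the other organs and 1477 (9.77%) were lower. Where 1 side of a difference is dim, the difference is a lower limit, in either direction. Over 10-fold as measured, 244 genes (1.61%) were higher and 33 (0.218%) were lower, and the extremes were a log2 difference of 9.18 for SNAP25 and -4.59 for CD36. With the arrays shifted to an equal housekeeping median in place of the deposited scale, 1382 genes were higher and 544 lower, 76.8% of the called probesets were higher, against 59.2% as deposited, and the median difference of all genes was 0.137, against -0.079 as deposited. Of 13 housekeeping genes 1 was higher and 3 were lower on the deposited scale (median -0.06). The housekeeping shifts differed within organs, from -0.118 to 1.333 in pancreas and from -0.415 to 1.342 in skeletal muscle. They can widen the spread, so that a call is lost although the difference grows.

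Fewer of the lower genes stood apart from each organ. A gene was called higher or lower than each organ when the weakest of its 9 single-organ comparisons passed, and 481 genes (3.18%) were higher in cerebrum than each of the 9 organs, while 5 (0.0331%) were lower than each, against 264 and 0 with an equal housekeeping median. Every cerebrum array lay above every other array in 599 genes (3.96%) and below every other array in 108 (0.715%). The 108 became 178 without cerebrum array 1 and 14 with an equal housekeeping median. No other organ mean exceeded that of cerebrum in 1438 of the 1862 higher genes (77.2%), and none fell below it in 780 of the 1477 lower genes (52.8%). In cerebrum 897 lower genes (60.7%) had a mean below 5, in the dim range. Among the 9 other organs, the highest mean was that of pancreas for 339 of the higher genes and of heart for 288. Heart exceeded cerebrum in 132 of the higher genes and pancreas in 37. The lower genes had their highest mean most often in lymph node (278), jejunum (233) and liver (230). The same counts over all genes were not made.

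**Figure D1:**
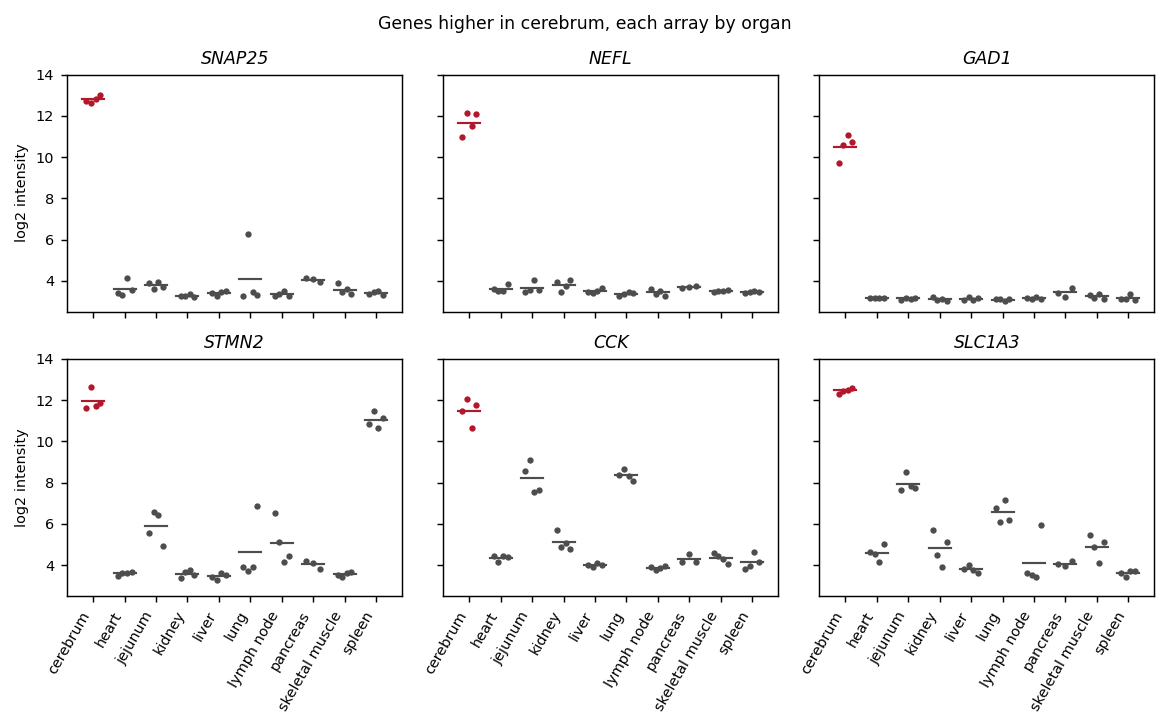
Log2 intensity of 6 genes in each array, by organ, with cerebrum at the left in red; points are arrays (4 an organ, 3 for pancreas) and lines are organ means. SNAP25, NEFL and GAD1 were near background in nearly all other arrays. STMN2 was also high in spleen (mean 11.02), CCK in lung (mean 8.36) and jejunum (arrays at 7.56 to 9.11), and SLC1A3 in jejunum (mean 7.94).

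Genes of synaptic vesicles and transmitter release were higher or not called, and none was lower. Of 39 measured, 26 were higher in cerebrum, with a median difference of 0.73, against -0.079 over all genes. Each list count is to be read beside the shares of all genes, 12.3% higher and 9.77% lower. SNAP91, an adaptor that shapes clathrin coats at the synapse, gave 10.48, 10.85, 11.05 and 10.89 in cerebrum, against 3.13, 3.36 and 7.55 in the others, a 118-fold difference (log2 6.89 ± 0.20 SE, adjusted p = 1.23e-23). The heart accounted for the highest other mean, 6.53. DNM1, the dynamin that pinches vesicles from the synaptic membrane, was 57.4-fold higher (5.84 ± 0.15 SE), and the cerebrum arrays again stood apart, at 10.26 to 11.05, against at most 5.81 elsewhere. ATP6V1G2, a proton pump subunit that acidifies vesicles, was higher by 5.39. VAMP2, the vesicle partner of SNAP25, was present in every organ and still 16-fold higher in cerebrum, with a mean of 10.40 ± 0.15 in cerebrum and 7.69 in heart, the next organ. SYT1, the calcium sensor of release, varied more among cerebrum arrays (6.52, 6.02, 7.94 and 5.38) and was above all others, whose highest was 4.01.

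The synaptic list also shows how far the probesets limit what is seen. Of its 13 genes not called, 12 had a mean below 5 in all 10 organs. PCLO, a giant scaffold of the release zone, gave 3.69 to 3.70 in cerebrum, against 3.38, 3.67 and 4.56 in the others. SYP, a major vesicle membrane protein, was called higher but differed by only 0.35, with a cerebrum mean of 3.93. With an equal housekeeping median the SYP difference was larger, 0.56, but was not called (adjusted p = 0.112). Over all genes 41.8% had no organ mean of 5 or more, and for those a difference near 0 gives no measure of the transcript.

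Among glutamate receptors and proteins of the postsynaptic density, 22 of 35 were higher and 0 lower (median 0.73). CAMK2B, the beta chain of the calcium/calmodulin kinase of synapses, gave 10.97, 12.20, 11.70 and 11.99 in cerebrum, against 3.70, 3.90 and 8.51 in the others (136-fold, log2 7.09 ± 0.19 SE). Its highest other organ was skeletal muscle, at 7.65. GRIK2, a kainate receptor subunit, gave 9.80, 10.17, 9.31 and 9.95 in cerebrum, against 3.11, 3.41 and 5.73 (76.3-fold). No array of another organ reached the cerebrum range in either gene. CNKSR2, a scaffold of the postsynaptic density, was higher by 4.08. The list had a wide spread of values, since GRIN1, the obligate subunit of NMDA receptors, had a mean of 4.63 in cerebrum and 4.76 in the others (adjusted p = 0.243). GRM7, a presynaptic metabotropic receptor, ranged over the cerebrum arrays from 4.24 in array 1 to 7.16 in array 2.

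For GABA, the main inhibitory transmitter, 12 of 22 genes were higher and 0 lower (median 0.45). GAD1, which makes GABA from glutamate, gave 9.71, 10.57, 11.05 and 10.71 in cerebrum, against 3.02, 3.16 and 3.66 in the others, and was 160-fold higher (7.33 ± 0.11 SE, adjusted p = 4.6e-32). Its second form GAD2 had means of 3.76 in cerebrum and 3.51 in the others, and was not called (adjusted p = 0.0442). GABBR2, a subunit of the GABA-B receptor, was 51.0-fold higher, and GABRD, the delta subunit of extrasynaptic GABA-A receptors, was 20.2-fold higher. Both had every cerebrum array above every other array. GABRA3, an alpha subunit, was called higher by 1.46, but its cerebrum values were 3.69, 3.94, 7.48 and 3.77, so that array 3 alone stood high. Without array 3 the difference was 0.54 and was still called.

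In the cytoskeleton of neurons 26 of 36 genes were higher and 0 lower (median 2.44). NEFM, the medium neurofilament chain, gave 10.14, 11.76, 10.47 and 11.76 in cerebrum, against 3.39, 3.77 and 4.57 (141-fold). KIF5C, a kinesin heavy chain that carries cargo along axons, was higher by 7.63. NEFH, the heavy chain found in thick axons, was lower in arrays 1 and 2 (8.08 and 8.31) than in arrays 3 and 4 (10.30 and 11.01), with a highest other array of 5.75. STMN2, a stathmin that regulates microtubules in growing axons, was 125-fold higher than the mean of the others (6.97 ± 0.35 SE), yet spleen had a mean of 11.02, close to the 11.96 of cerebrum, and the comparison with each organ was not called (adjusted p = 0.838). A second STMN2 probeset was higher by 5.98. MAPT, the microtubule protein tau, was 9.16-fold higher, with skeletal muscle next at 7.08.

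Adhesion and guidance molecules of neurons were higher in 27 of 35 cases and lower in 0 (median 1.08). OLFM1, a secreted protein of synapses and axons, was higher by 7.79 and had a cerebrum mean of 11.94 ± 0.53 (SD), against 5.12 in heart, its next organ. NRCAM, an adhesion molecule of the node of Ranvier, was higher by 5.69, LGI1, a secreted epilepsy protein that links synaptic partners, by 5.68, and CNTN1, a contactin of axons, by 5.40. All 3 were higher than each of the 9 organs. In this list 13 genes had their highest cerebrum value in array 2 and 12 in array 3.

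Neuropeptides and the proteins of dense-core granules were higher in 20 of 29 genes and lower in 0 (median 2.10). CHGB, a granule core protein, gave 10.22, 11.51, 11.44 and 11.76 in cerebrum, against 3.22, 3.41 and 7.79 in the others (150-fold, log2 7.23 ± 0.18 SE). Jejunum, which holds endocrine cells, was next at 7.41. CCK, a peptide of gut and cortex, gave 11.45, 12.04, 10.67 and 11.75 in cerebrum, against 3.79, 4.46 and 9.11 (78.3-fold). Lung had the next highest mean, 8.36, while the jejunum arrays ran from 7.56 to 9.11 and held the highest other array. PCSK1N, an inhibitor of the prohormone convertases, was higher by 6.67, and SCG3, a secretogranin, by 5.85. SST, somatostatin of inhibitory neurons and of pancreatic islets, was named after its values were seen: its means were 9.56 in cerebrum and 9.17 in pancreas, so that it was called against the mean of the 9 organs (4.89 ± 0.12 SE) and not against each (adjusted p = 0.449).

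Peptide levels differed between cerebrum arrays, and 21 of the 29 genes were highest in array 2. CRH, the corticotropin-releasing hormone, gave 5.29, 8.17, 4.32 and 6.53, and TAC1, the precursor of substance P, gave 4.57, 7.95, 4.95 and 6.15. Both were chosen after their values were seen. The other 35 arrays reached 5.65 for CRH and 8.46 for TAC1, so both genes overlapped with other organs although both were called higher than their mean. TAC1 was not called without array 2 or 4.

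RNA-binding proteins of neurons were higher in 15 of 19 genes and lower in 0, with a median of 2.28. ELAVL4, which stabilises neuronal messages, gave 8.74, 9.70, 9.62 and 10.10 in cerebrum, against 3.05, 3.21 and 3.90 (76.3-fold). ELAVL2 of the same family was higher by 6.16, and RBFOX1, a splicing factor of neurons and muscle, by 5.29. NOVA1, another splicing factor, was 18.6-fold higher. Every cerebrum array was above every other array in each of these 4 genes.

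Transcription factors of the forebrain were higher in 16 of 31 genes and lower in 0 (median 0.45, and 0.29 without array 2). LMO3, a LIM-only cofactor, was higher by 4.18, MYT1L, a zinc finger factor that represses other lineages in neurons, by 3.67, and SOX2, a factor of neural progenitors and glia, by 3.61. FEZF2, which specifies deep-layer projection neurons in mouse, gave 5.79, 7.74, 5.70 and 7.22 in cerebrum, against 3.20, 3.38 and 3.87, and was 9.23-fold higher. The levels in arrays 2 and 4 were the higher ones for FEZF2 and also for NEUROD6, a bHLH factor of cortical neurons chosen after its values were seen (4.78, 6.34, 4.67 and 6.58). Of 28 genes that mark the cerebellum, brain stem, hypothalamus or spinal cord, 1 was higher and 1 lower, with a median of -0.01. Of these 28 genes, 18 were dim in every organ and not called, so their differences give no measure of the transcripts. Whether the samples held tissue of these regions was not tested. The higher gene was PVALB, a calcium buffer that fast inhibitory neurons of the cortex also use, at 3.10 ± 0.28 SE. For PVALB lung had a mean of 8.52, above the 8.18 of cerebrum. The lower one was HOXA5, a body axis factor, with 3.12 in cerebrum and 8.78 in lung.

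Signalling proteins downstream of receptors and calcium were higher in 26 of 39 genes and lower in 0 (median 1.37). VSNL1, a calcium sensor, gave 12.09, 11.86, 12.57 and 12.23 in cerebrum, against 2.99, 3.38 and 8.35 in the others (253-fold), with spleen next at 7.81. PRKCB, a protein kinase C, was higher by 5.92, and GNAO1, the alpha subunit of the Go protein that closes calcium channels, was 38.6-fold higher. HPCA, hippocalcin, was 36.0-fold higher, and its 4 cerebrum arrays (8.62 to 9.58) were far above the highest other array (4.55). PPP3CB, a calcineurin catalytic subunit, had the lowest difference of the list, -1.0, which was not called (adjusted p = 0.00247). PPP3CB was called lower without jejunum array 3 (adjusted p = 0.000452) or liver array 1 (adjusted p = 0.000513).

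**Figure D2:**
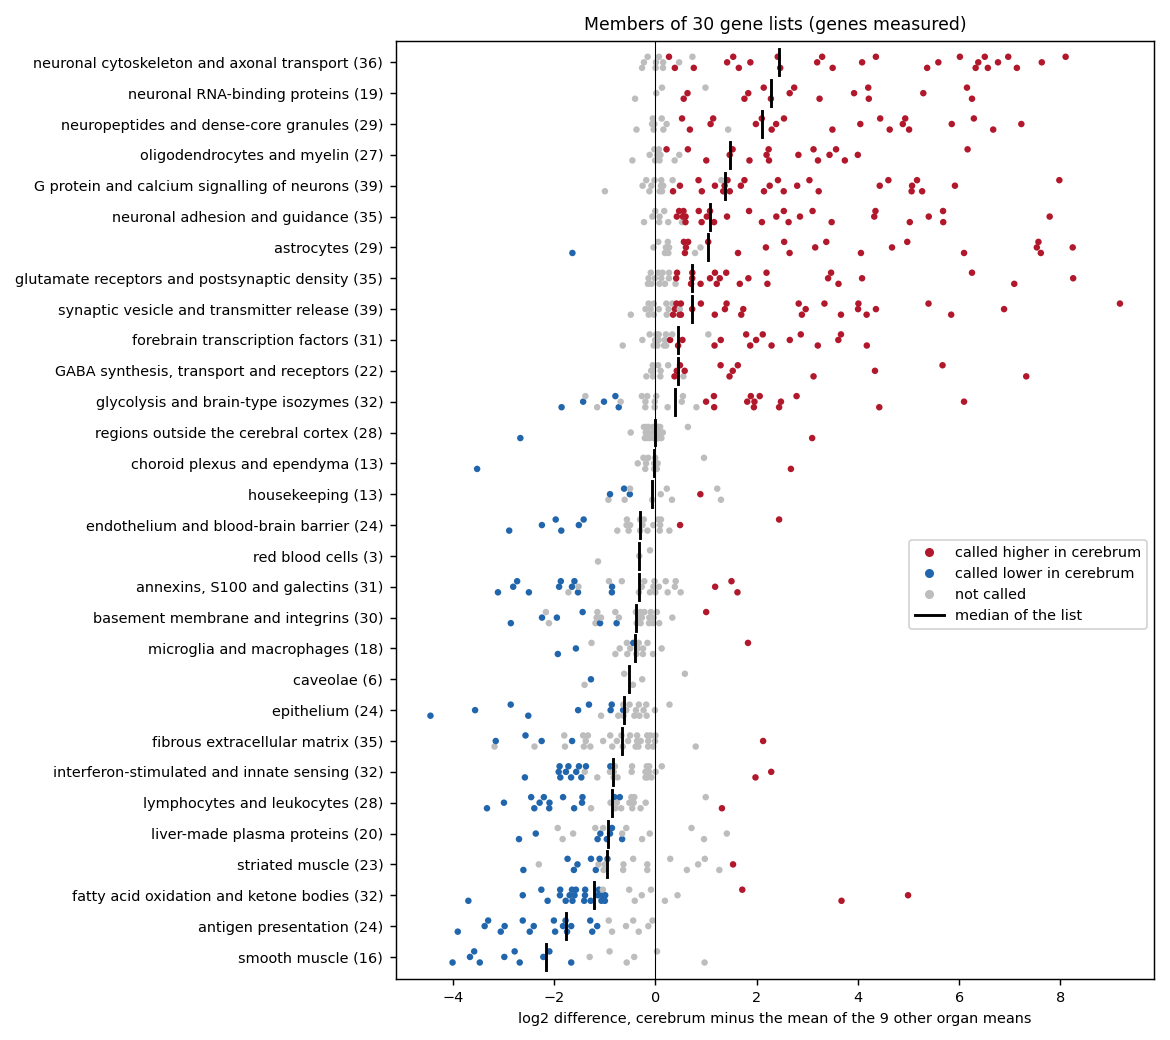
Log2 difference, cerebrum minus the mean of the 9 other organ means, of each measured member of 30 gene lists, with the number measured after each list name. Red points were called higher, blue points lower and grey points neither, black bars are medians, and the lists run from a median of 2.44 (neuronal cytoskeleton) at the top to -2.16 (smooth muscle) at the bottom.

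Of 29 astrocyte genes 19 were higher and 1 was lower (median 1.04). FABP7, a fatty acid carrier of radial glia and astrocytes, was higher by 8.24 (303-fold). S100B, a calcium-binding protein, gave 11.99, 11.17, 10.82 and 11.38 in cerebrum, against 3.48, 3.69 and 4.74 (196-fold). SLC1A2 and SLC1A3, the glutamate transporters of astrocytes, were 190-fold and 185-fold higher. For SLC1A3 the cerebrum arrays lay within 12.29 and 12.61 (SD 0.13), and jejunum was next at 7.94. For SLC1A2 the highest other array was a liver, at 9.02. The lower gene was ALDH1L1, a folate enzyme used as an astrocyte marker in mouse, with a mean of 5.57 in cerebrum and 9.80 in kidney (difference -1.64, adjusted p = 4.99e-07).

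GFAP, the intermediate filament of astrocytes, depended on the probeset. Its representative probeset differed by 0.65, with a mean of 4.98 in cerebrum. With an equal housekeeping median that difference was larger, 0.86, but was not called (adjusted p = 0.00656). Another GFAP probeset had 8.14 ± 1.61 (SD) in cerebrum and 3.93 in the others, a difference of 4.21 (adjusted p = 2.62e-14). AQP4, the water channel of astrocyte endfeet, had means of 3.83 in cerebrum and 3.59 in the others, and was not called (adjusted p = 0.00567).

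Oligodendrocyte and myelin genes were higher in 17 of 27 cases and lower in 0 (median 1.47), and they varied most between cerebrum arrays. GPR37, a receptor of oligodendrocytes, gave 10.86, 9.09, 9.42 and 9.39 in cerebrum, against 3.004, 3.28 and 5.33 (71.9-fold). MBP, myelin basic protein, gave 9.48, 7.25, 6.69 and 6.72, against 3.22, 3.52 and 3.86 (16-fold), and 2 further MBP probesets were not called. ERMN, a cytoskeletal protein of mature oligodendrocytes, gave 9.93, 5.44, 6.87 and 6.90, against at most 4.19 elsewhere. In all 3 genes array 1 was the highest, as it was in 23 of the 27 genes. The level of the list was 7.28 in array 1 and 5.54 to 5.83 in the other cerebrum arrays, and without array 1 the median difference was 0.84, with 12 genes called. PMP22, a myelin protein of peripheral nerve, gave means of 6.68 in cerebrum and 11.02 in lung.

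Microglia share most of their genes with macrophages of other organs. Of 18 such genes 1 was higher and 3 were lower (median -0.41, and -0.78 without array 1), against 12.3% and 9.77% of all genes. Counts this small do not set the list apart from all genes. P2RY12, an ADP receptor that marks resting microglia, was higher by 1.83, with 8.30, 5.21, 4.02 and 4.91 in cerebrum, and spleen had a mean of 6.28. Without array 1 the difference was 0.93. CD163, a haemoglobin receptor of macrophages, was lower by 1.93, with a mean of 4.01 in cerebrum and 9.51 in spleen, and was not called when any cerebrum array was left out. C1QA, a complement subunit of microglia and macrophages, had means of 8.71 in cerebrum and 9.07 in the others (adjusted p = 0.387). Array 1 was the highest cerebrum array for 14 of the 18 genes.

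Vessels of the brain form a barrier. Among 24 endothelial and barrier genes 2 were higher and 6 lower (median -0.30), against 12.3% and 9.77% of all genes. SLC2A1, the glucose transporter of barrier vessels, gave 9.33, 9.42, 8.50 and 9.47 in cerebrum, against 5.54, 6.75 and 8.35 in the others, and was 5.44-fold higher. SLCO1C1, a thyroxine transporter of the barrier, was higher by 0.49, but it was dim in all 10 organs. With an equal housekeeping median the SLCO1C1 difference was larger, 0.7, but was not called (adjusted p = 0.0388). The other 16 genes of the list were not called. Among the lower genes, PECAM1, an endothelial junction molecule, had means of 5.61 in cerebrum and 10.77 in lung, and differed by -2.89 from the mean of the others, and KDR, the main VEGF receptor, differed by -2.24. TTR, the thyroxine carrier made by choroid plexus and liver, gave 9.96, 3.69, 6.90 and 3.61 in the cerebrum arrays, so that arrays 1 and 3 were high, and was not called (adjusted p = 0.267). Of 13 genes of choroid plexus and ependyma 1 was higher (TPPP3) and 1 lower, AQP1, a water channel also abundant in kidney (median -0.02). These counts are close to the shares of all genes, and 7 of the 13 genes were dim in all 10 organs.

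Of 32 genes of fatty acid oxidation and ketone bodies 22 were lower in cerebrum and 3 higher, with a median of -1.21. ACSL5, which activates long-chain fatty acids, gave 4.16, 4.27, 4.04 and 4.24 in cerebrum, against 4.23, 7.85 and 12.22 in the others (13-fold lower, log2 -3.70 ± 0.20 SE). HADH, an enzyme of the oxidation spiral, was lower by 2.62, OXCT1, which activates ketone bodies, by 2.25, and HADHB, of the trifunctional protein, by 2.13. HADHA, the other chain of that protein, was below every other array: its cerebrum arrays were at 7.90 to 8.07 and the lowest other array was at 8.10. Pancreas was as low as cerebrum over the list, with 6.99, against 7.07 to 7.27 in the cerebrum arrays. With an equal housekeeping median 12 genes were lower.

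Of this list 3 genes were higher. ACSL6, which activates long-chain and polyunsaturated fatty acids, was 31.8-fold higher, CPT1C, a brain form of carnitine palmitoyltransferase that resides in the endoplasmic reticulum, was 12.8-fold higher, and ACSL3, an enzyme of lipid droplets, was higher by 1.72. The CPT1C values were 7.35, 8.90, 8.34 and 8.88 in cerebrum, against 4.05, 4.48 and 7.44 in the others, with an overlap of array 1 and a spleen array.

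Of 32 genes of glycolysis and its brain isozymes 13 were higher and 5 lower (median 0.38). ALDOC, the aldolase of brain, gave 11.78, 11.73, 12.15 and 11.80 in cerebrum, against 4.44, 5.73 and 7.97 (68.5-fold). ENO2, the enolase of neurons, was 21.4-fold higher, PFKM, a phosphofructokinase shared with muscle, 6.91-fold, and SLC2A3, the glucose transporter of neurons, was higher by 2.48. The lower genes were PGAM2, CKMT2 and ENO3, isozymes of muscle, PKLR, the pyruvate kinase of liver, and LDHA, the lactate dehydrogenase chain abundant in skeletal muscle (-0.73). PKLR was not called without array 1, 2 or 4, and ENO3 without array 2. With an equal housekeeping median 4 of the 5 lost their call, namely CKMT2 (adjusted p = 0.0014), ENO3 (0.035), PKLR (0.133) and LDHA (difference -0.51, adjusted p = 0.197). PGAM2 was at 11.95 in skeletal muscle and 4.01 in cerebrum. Without pancreas in the comparison the median of the list was 0.04.

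**Figure D3:**
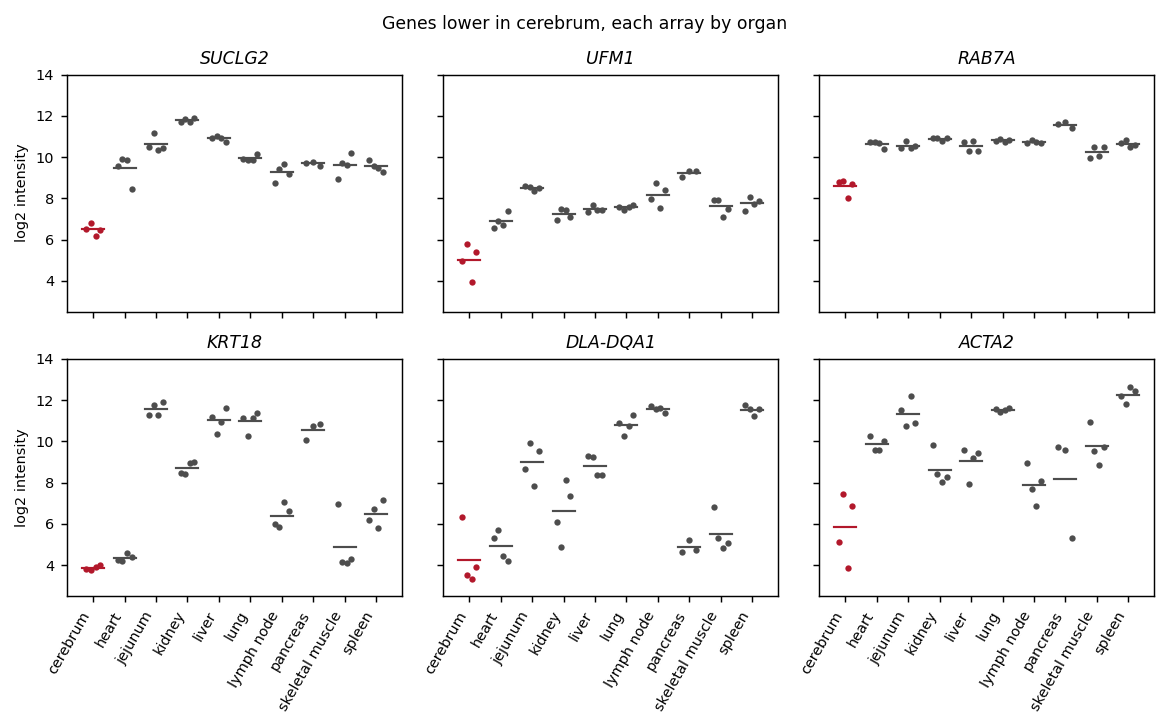
Log2 intensity of 6 genes in each array, by organ, with cerebrum at the left in red; points are arrays and lines are organ means. SUCLG2, UFM1 and RAB7A lay in cerebrum below every array of every other organ, while arrays of other organs came near or into the cerebrum range for KRT18 (such as heart and skeletal muscle), DLA-DQA1 (such as heart, kidney, pancreas and skeletal muscle) and ACTA2 (such as lymph node and pancreas).

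The 5 genes called lower in cerebrum than each of the 9 organs all have widespread roles in cells. SUCLG2, the subunit of mitochondrial succinyl-CoA ligase that makes GTP, gave 6.53, 6.80, 6.18 and 6.46 in cerebrum, against 8.46, 9.86 and 11.88 in the others, a 12.1-fold lower mean (log2 -3.60 ± 0.18 SE, adjusted p = 3.39e-17). The nearest organ was lymph node, at 9.26, and a second SUCLG2 probeset was lower by 3.43. The other subunits of this enzyme, looked up after these values were seen, did not pass: SUCLA2, which makes ATP, differed by 0.88 (adjusted p = 0.0216) and SUCLG1, the shared alpha chain, by -0.39 (adjusted p = 0.00547), though SUCLG1 was called without pancreas in the comparison (-0.53, adjusted p = 0.000209).

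UFM1, a ubiquitin-like modifier that serves protein quality control at the endoplasmic reticulum, gave 4.94, 5.77, 3.93 and 5.38 in cerebrum, against 6.56, 7.57 and 9.33, with pancreas the highest at 9.22 (7.04-fold lower). Its second probeset, with a difference of -2.52, was also below every other array. SMAD4, the common mediator of TGF-beta signals, gave 6.43, 7.23, 5.74 and 6.44 in cerebrum, against 7.53, 8.24 and 8.70 (3.35-fold lower), and its second probeset was lower by 1.23. RAB7A, a small GTPase of late endosomes, was 4.41-fold lower at its representative probeset (8.02 to 8.85 in cerebrum, against at least 9.94 elsewhere), but 2 further probesets differed by -0.09 and -0.18 and were not called. LEPROTL1, a membrane trafficking protein, was 3.93-fold lower, and its second probeset was at 2.98 in cerebrum and 3.08 in the others, in the dim range. Under the equal housekeeping median 0 genes were called lower than each organ, without cerebrum array 3 there were 2, and without skeletal muscle array 3 there were 9.

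The 10 genes with the most negative difference came from several tissues. CD36, a fatty acid receptor of muscle and macrophages, gave 3.58, 3.85, 3.89 and 3.51 in cerebrum, against 3.51, 9.51 and 11.35 in the others (24-fold lower as measured, log2 -4.59 ± 0.58 SE), and its highest organ was heart. The CD36 values of cerebrum lay in the dim range, so the fold is a lower limit. Kidney was as low for CD36, with a mean of 3.735, against 3.706 in cerebrum. KRT18, a keratin of simple epithelia, was at 3.78 to 4.0 in cerebrum and at 11.56 in jejunum (21.8-fold lower). ALDH1A1, a retinal dehydrogenase, was 19.5-fold lower, and its highest organ was liver. Lymph node was as low as cerebrum for ALDH1A1, with means of 5.19 and 5.32. CTSZ, a lysosomal protease of myeloid cells, gave 7.12, 5.58, 4.57 and 5.47 in cerebrum, against 5.70, 10.03 and 12.76 (17.9-fold lower).

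ACTA2, the actin of smooth muscle, was 16.1-fold lower and was uneven within cerebrum, at 5.11, 7.47, 3.89 and 6.86. CRIP1, a LIM protein of gut and immune cells, and ADH4, an alcohol dehydrogenase highest in liver, were 15.6-fold and 15.1-fold lower with every cerebrum array below every other array. A further CRIP1 probeset was lower by 4.21, while others differed by -0.50 and -0.095 and were not called. ENPEP, an aminopeptidase of gut and kidney surfaces, DLA-DQA1, a class II histocompatibility chain, and TSPAN8, a tetraspanin of epithelia, were 15.1-fold, 15.0-fold and 14.5-fold lower. For these 3 the lowest organ was near cerebrum: lymph node had means of 3.42 for ENPEP and 3.91 for TSPAN8, and pancreas had 4.87 for DLA-DQA1.

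Antigen presentation genes were lower in 17 of 24 cases and higher in 0 (median -1.76). DLA-DQA1 gave 6.34, 3.51, 3.34 and 3.90 in cerebrum, against 4.19, 8.39 and 11.78 in the others. DLA-DRA, another class II chain, gave 8.86, 5.06, 7.20 and 7.66 in cerebrum, against 7.26, 10.77 and 12.92 (9.89-fold lower). The groups overlapped in both genes, and array 1 was the highest cerebrum array in each. PSMB8, a subunit of the immunoproteasome, was 8.32-fold lower, and B2M, the light chain of class I molecules, was 3.36-fold lower but still bright, at 10.90 ± 0.48 in cerebrum and 12.65 in the others. TAP2, a peptide transporter, had means of 7.49 in cerebrum and 7.63 in the others (adjusted p = 0.57). The list level was 5.77 to 6.44 in the cerebrum arrays, 6.03 in pancreas and 9.75 in lymph node.

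Smooth muscle genes were lower in 10 of 16 cases and higher in 0 (median -2.16). MYLK, the kinase that starts contraction, was lower by 3.67, MYH11, the myosin heavy chain, by 3.58, and TAGLN, an actin-binding protein, by 3.47. In epithelial genes 9 of 24 were lower and 0 higher (median -0.63). EPCAM, an epithelial adhesion molecule, differed by -3.56, and KRT8, the partner of KRT18, by -2.86. The level of the epithelial list was 4.04 to 4.17 in cerebrum, and that of heart was 4.04.

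Of 28 lymphocyte and leukocyte genes 14 were lower and 1 was higher (median -0.85). RAC2, a GTPase of blood cells, differed by -3.33, with a mean of 3.45 in cerebrum and 11.04 in lymph node, JCHAIN, the joining chain of antibodies, by -2.99, and LCP1, an actin bundler of leukocytes, by -2.46. The higher gene was SELPLG, a selectin ligand, at 7.85, 4.99, 5.34 and 5.62 in cerebrum, with array 1 again the highest. SELPLG was not called without array 1 (difference 0.68). The count of lower genes was 9 without array 2 or 3, 8 without array 4 and 7 with an equal housekeeping median. Of 32 interferon-stimulated and sensing genes 12 were lower and 2 higher (median -0.83). IFI44L, an interferon-induced protein, was 5.98-fold lower, and 7 genes were lower without array 2, 3 or 4 and 5 with an equal housekeeping median. MX1, an antiviral GTPase, went the other way, at 8.03, 8.27, 8.56 and 8.81 in cerebrum, against 3.98, 6.19 and 8.26 in the others (4.88-fold higher), with liver next at 7.99. IFI6, a mitochondrial interferon response protein, was 3.93-fold higher and was higher in arrays 3 and 4 (8.31 and 8.25) than in arrays 1 and 2 (6.39 and 6.50).

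Annexins, S100 proteins and galectins, which bind calcium, membranes or sugars, were lower in 11 of 31 genes and higher in 3 (median -0.33). LGALS2, a galectin of gut, differed by -3.11, S100P, a calcium-binding protein of epithelia, by -2.81 and ANXA2, a membrane-organising annexin, by -2.73. The higher members were S100A13, S100A1 and S100A16, which were higher by 1.62, 1.5 and 1.18, with S100A1 not called without array 1. Fibrous matrix genes were lower in 4 of 35 cases (2 without array 1 or 3) and higher in 1 (median -0.67), a share of lower genes close to the 9.77% of all genes. FBN1, the fibrillin of elastic fibres, and DCN, a collagen-binding proteoglycan, differed by -3.16 and -2.57. COL3A1, a fibrillar collagen, differed by -3.18 without being called (adjusted p = 0.00376), and its cerebrum values were 4.63, 7.34, 4.08 and 4.74. COL3A1 was called with the replicate number as a block (-3.14, adjusted p = 3.45e-05) and with an equal housekeeping median (-2.96, adjusted p = 0.000433). SPARC, a matrix-binding protein that astrocytes and vessels secrete, was 4.37-fold higher, at 11.45 to 12.03 in cerebrum, and was not called without array 1, 2 or 4. Basement membrane and integrin genes were lower in 6 of 30 and higher in 1 (median -0.38, and -0.71 without array 1), led by COL4A1, a collagen of basement membranes (-2.86). Of 6 caveolar genes 1 was lower and 0 higher (median -0.53), too few to set beside the 9.77% of all genes. Without array 3 the count of lower basement membrane genes was 0 and without array 4 it was 1, while COL4A1 was not called without array 1, 3 or 4 and FBN1 and DCN were not called without array 1 or 3.

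Lists of plasma proteins and striated muscle served as markers of liver and muscle RNA. Liver-made plasma proteins were lower in 8 of 20 genes and higher in 0 (median -0.93), with 5 lower without array 1 or 3, and striated muscle genes were lower in 8 of 23 and higher in 1 (median -0.95), PYGM, the glycogen phosphorylase that astrocytes share with muscle (1.53). Muscle transcripts were not uniformly at background in cerebrum. TNNI2, a troponin of fast fibres, gave 8.15, 4.73, 10.10 and 4.36 in the cerebrum arrays, against 4.20, 4.68 and 13.73 in the others. TTN, the giant spring protein titin, gave 5.15, 4.35, 9.05 and 4.42, and MYH2, a fast myosin, gave 5.31, 3.43, 8.08 and 3.46. Arrays 3 and 1 were the high ones in all 3 genes, none of which was called with all arrays, though TTN was called lower without array 3. The level of the muscle list was 5.19, 4.39, 6.08 and 4.44 in the cerebrum arrays, with 16 of 23 genes highest in array 3, and the other 35 arrays ran from 3.82 to 11.43 with a median of 4.23. ALB, serum albumin, was also highest in array 3, at 6.78. The level of the plasma protein list was 5.29, 4.91, 5.42 and 4.9 in the cerebrum arrays. The other 35 arrays had a median of 5.09 for it, with means of 4.67 in lymph node and 12.06 in liver. Cerebrum was therefore low for this list beside the mean of the 9 organs, but not beside the median array. With an equal housekeeping median 2 plasma protein and 5 muscle genes were lower. The part of these transcripts in other differences was not tested, and 12 muscle genes were lower without array 3. Of 10 red cell genes listed 3 were measured, at 3.43 to 3.61 on average in the cerebrum arrays, with 0 called. Of these, 2 were dim in all 10 organs, so the list says little about blood RNA.

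In 24 pairs a brain form was set beside another member of its protein family, here called the other form. The brain form was called higher in 19 pairs, to be read beside the 12.3% of all genes. It had the larger difference in 19 pairs, which were not all the same ones. SPTBN4, a beta-spectrin, was called higher by 0.38, while SPTBN1 differed by 1.09 without being called. Some brain forms were called at dim cerebrum means, such as SYP (3.93) and SPTBN4 (4.04). The other form was not called in 14 pairs, higher in 6 and lower in 4. SNAP25 differed by 9.18, and SNAP23, the form of other secretory cells, by -1.65 without being called, a gap of 10.83 ± 0.48 (SE). NEFL differed by 8.10 and VIM, the intermediate filament of mesenchymal cells, by -2.12 and was called lower, a gap of 10.22 ± 0.26. DNM1 and DNM2, the dynamin of all tissues, had differences of 5.84 and -0.54.

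Opposite calls were also seen in RNA processing. PTBP2, the splicing repressor of young neurons, was higher by 2.28 and PTBP1, the form of other cells, was lower by 0.70, a gap of 2.98 ± 0.36, though PTBP1 was not called without array 4 or with an equal housekeeping median (difference -0.48, adjusted p = 0.203). CELF4, an RNA-binding protein of neurons, was higher by 2.65 and CELF1, the widespread form, lower by 1.61, a gap of 4.26 ± 0.26. In 5 pairs both forms were higher, among them KIF5C (7.63) with KIF5B (1.33), RTN1 (7.73) with RTN4 (1.92), and ENO2 (4.42) with ENO1 (1.15). In 5 pairs the brain form was not called. TPPP, a tubulin polymerising protein of oligodendrocytes, differed by 0.16 with means of 3.89 in cerebrum and 3.73 in the others, while TPPP3, a relative found in ciliated cells, was higher by 2.68, a gap of -2.52 ± 0.40.

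**Figure D4:**
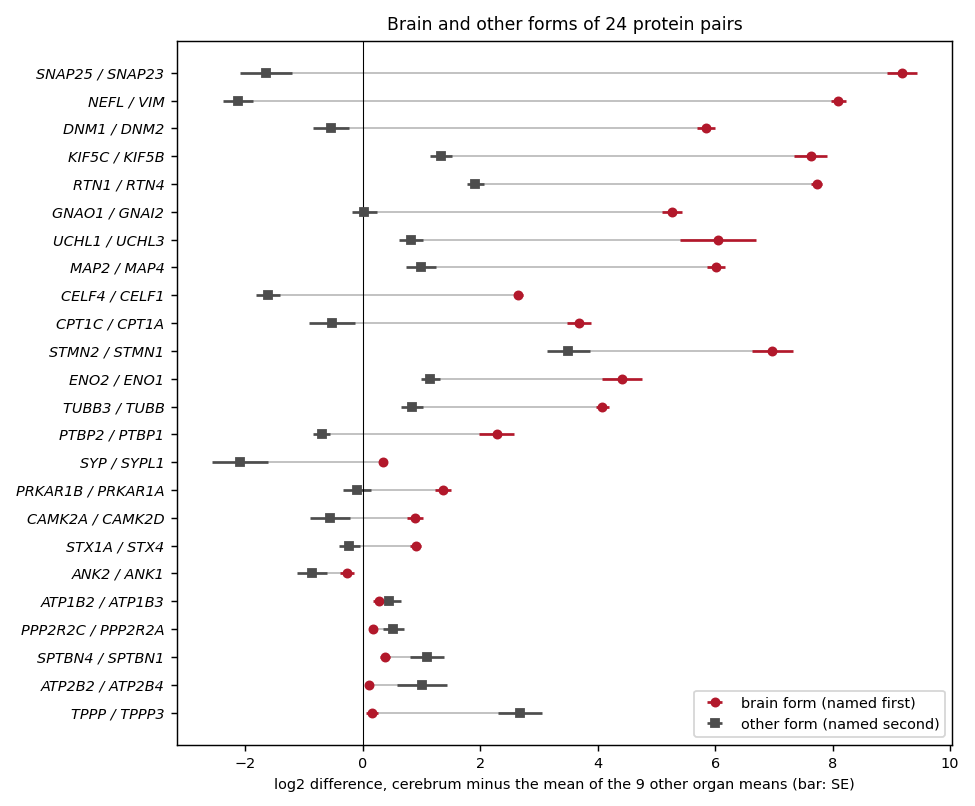
Log2 difference, cerebrum minus the mean of the 9 other organ means, of the brain form (red circles) and the other form (grey squares) in 24 pairs; bars are limma's SE. The largest gap was that of SNAP25 and SNAP23 (10.83) and the most negative that of TPPP and TPPP3 (-2.52).

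As measured, cerebrum arrays differed from one another most in the genes that were higher in cerebrum. The median SD over the 4 arrays was 0.19 for all genes, 0.43 for higher genes and 0.23 for lower genes, and 136 higher genes had an SD above 1. These SDs are not compared at equal intensity, since signals near background are compressed. The cerebrum mean was dim in 19.0% of the higher genes and in 60.7% of the lower genes. The 10 with the largest SD were ENPP6, KLK6, ERMN, P2RY12, GABRA3, EPHA7, GPR22, KCNC1, ASPA and ANKRD34C. KLK6, a protease of oligodendrocytes, gave 11.89, 7.04, 8.87 and 9.29 in cerebrum, against at most 3.69 in any other array. ENPP6, KLK6, ERMN and ASPA are genes of oligodendrocytes. ENPP6 was not called without array 1, nor EPHA7, a guidance receptor, without array 2 or 4. The spread followed gene groups: array 1 was highest for myelin and microglia, array 2 for peptides and for fibrous matrix (25 of 35 genes), and array 3 for striated muscle. COL1A2, a fibrillar collagen, gave 5.54, 9.52, 4.30 and 8.04.

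**Figure D5:**
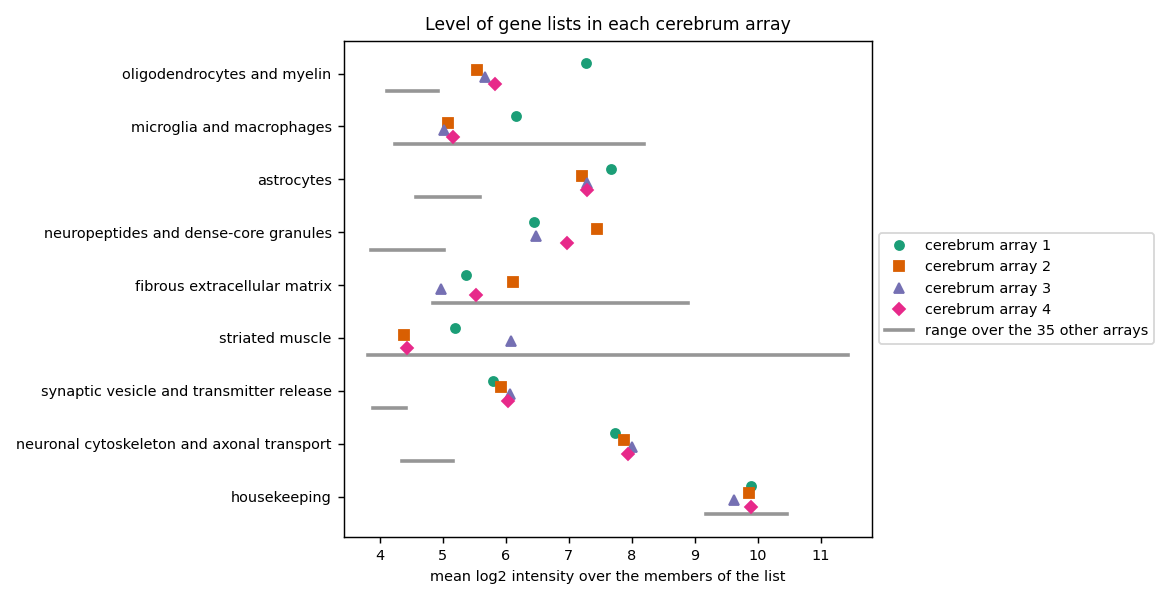
Mean log2 intensity over the members of 9 gene lists in each of the 4 cerebrum arrays (coloured symbols) and the range over the 35 other arrays (grey bars). Array 1 stood above the other cerebrum arrays for oligodendrocytes and myelin (7.28), array 2 for neuropeptides (7.45) and array 3 for striated muscle (6.08), while vesicle genes stayed within 5.80 and 6.07.

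Probesets of a gene did not always move together. Among the higher genes, 1203 had 2103 further probesets, of which 921 were also higher, 14 were lower and 1168 were not called. Among the lower genes, 1034 had 1795 further probesets, of which 711 were lower and 11 higher. Probesets without a gene symbol also stood out in cerebrum. The 5 with the largest difference among them had values of 7.74 to 8.45 on the log2 difference scale, of the same order as NEFL and RTN1, and for each of the 5 the probeset was higher than each of the 9 organs. One of the 5 gave 12.34 to 12.62 in cerebrum and up to 10.09 in liver.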

How the data were processed

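The authors extracted total RNA and hybridized it to Affymetrix Canine Version 2.0 arrays. The authors deposited log2 values made in Partek, where probe intensities were adjusted for GC content and sequence, corrected by the background step of RMA, quantile normalized and summarised per probeset by median polish. Quantile normalization gives all arrays 1 distribution, so differences are relative. Median polish averages probes, and signals near background are compressed. The genome build behind these values was not used here, and positions are not given.

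The values were used without further scaling. A mean per organ was fitted over all 39 arrays with limma 3.58.1 in R 4.3.3, and the cerebrum mean was contrasted with the unweighted mean of the 9 other organ means, as the study's methods describe, but without scan date, which the labels do not give. Benjamini-Hochberg adjustment ran over 42860 probesets. For a comparison with each organ, the largest of 9 one-sided p-values was doubled and adjusted likewise. On simulated data of all 42860 probesets, 65% of 40 probesets raised 2-fold in cerebrum and 72.5% of 40 lowered 2-fold were recovered, and 92.5% and 97.5% at 4-fold. The simulation gave a probeset the same mean and the same normal spread in every organ and changed few probesets. Its rates are therefore not the sensitivity reached in the deposited data.

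Symbols came from the array's probe table. Of the probesets, 29254 had 1 symbol, 439 several and 13167 none, and the last kinds entered the fits but no gene count. Dim means a mean below 5. The 30 gene lists and the protein pairs were written with earlier results of these data known, and so were the tests. Pair gaps are given with limma's SE and without a p-value for that reason. Named genes were the 4 markers, the 25 with the largest difference among those above every array and every organ, all those lower than each organ and below every array, the 10 most negative differences, the 4 largest and 4 smallest of each list, the pairs, the 10 with the largest SD among higher genes, and the 5 leading probesets without a symbol. VAMP2, SYT1, PCLO, GRM7, GAD2, NEFH, MAPT, GFAP, AQP4, C1QA, HADHA, ENO3, PKLR, LDHA, B2M, TTN and MYH2 fell outside this rule and were picked with their values in view. Alternatives tried were the replicate number as a block, shifts of each array to 1 common median (housekeeping genes, or every probeset), other variance estimates, removal of dim probesets, other references, a false discovery rate of 0.05, other probesets for a gene and leaving out each array in turn.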

Additional observations from a re-analysis of the deposited data

Results flagged for a closer look

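In 15 of 189 values examined over the 4 cerebrum arrays (159 genes and 30 list means), 1 array lay farther from the nearest other array than Dixon's limit for 4 values allows. For independent values that were not selected, chance gives this in about 1 of 20 groups. Some of these genes were chosen for a large SD over the same arrays or with their values in view. The 15 therefore cannot be set against that rate. Array 3 was the highest for ALB (6.78), GABRA3 (7.48), PGAM2 (4.38) and TTN (9.05), and the lowest for LEPROTL1 (5.68), SLC2A1 (8.50) and the mean of the housekeeping list (9.62). Array 1 was the highest for HADHB (8.02), S100A16 (7.92) and SNAP23 (5.22), and for the means of the lists of oligodendrocytes and myelin (7.28), microglia and macrophages (6.16) and lymphocytes and leukocytes (4.49). It was the lowest for the mean of G protein and calcium signalling genes (6.44). Array 2 was the highest for the mean of the caveolar genes (6.04).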

How the results depend on the processing

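Of 430 counts recomputed under alternatives other than leaving out an array, 396 stayed within 1.5 times the main count, and 0 of 159 named genes changed direction with a call under any setting, while 16 changed their call under one of these alternatives. With each array shifted to an equal housekeeping median, 1127 probesets and 544 genes were lower, 264 genes were higher and 0 lower than each organ, 397 lay above and 14 below every other array, and the lower members were 0 of the caveolar, 7 of the lymphocyte, 5 of the interferon, 2 of the plasma protein, 5 of the striated muscle, 12 of the fatty acid and 0 of the housekeeping list. With dim probesets removed, fewer genes remained, and 16 vesicle, 14 glutamate, 6 GABA and 15 adhesion genes were higher. At a false discovery rate of 0.05, 8253 probesets and 3347 genes were lower, 14 genes were lower than each organ, and the lower members were 6 of the microglia, 15 of the fibrous matrix, 14 of the basement membrane, 2 of the caveolar, 18 of the epithelial, 20 of the interferon, 14 of the striated muscle and 5 of the housekeeping list. The list of regions outside the cortex had 2 higher genes in place of 1 at that rate, with dim probesets removed, with an equal array median, with an array-weighted reference, without pancreas and with the probeset of largest difference. Medians of lists moved by more than their SD over cerebrum arrays in 14 of 30 lists under the housekeeping shift and in 17 without dim probesets, and 0 changed sign among those beyond 0.1.

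When each array was left out in turn, genes lower than each organ ranged from 2 to 9, genes below every other array from 108 to 178, higher genes of regions outside the cortex from 1 to 2, and lower genes from 2 to 6 for fibrous matrix, 0 to 8 for basement membrane, 8 to 15 for lymphocytes, 7 to 13 for interferon, 5 to 8 for plasma proteins and 2 to 5 for housekeeping. The replicate number as a block gave 1927 higher and 1602 lower genes, changing no count by more than 1.5 times. As deviations from organ means, same-numbered arrays correlated at a median of 0.138 over the series (101 of 171 pairs above 0.1, lowest -0.292), against -0.049 for arrays of other numbers, and cerebrum arrays with their numbers at -0.129 to 0.313 (13 of 35 pairs above 0.1). Of the 4 cerebrum arrays 3 matched their own number best. A shared dog and a shared scan date cannot be told apart here, and the labels give neither. The block changed the call of 1 named gene, COL3A1. Probesets that are dim in all organs limit what a difference near 0 can show.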
